A study of Mus musculus with 12 samples.

Results

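White adipose tissue (WAT) of mice on a high-fat diet was compared after narciclasine (ncls) or vehicle (veh) treatment. Of the 12 libraries of the series, 2 make up this comparison, WAT HFD-ncls and WAT HFD-veh, with 1 library for each group. The animals were male C57BL/6J mice, which received a high-fat diet (HFD, most of its energy from fat) from 8 to 17 weeks of age. From 10 weeks of age they were gavaged once a week with ncls or with the vehicle hydroxypropyl cyclodextrin, for 7 weeks. Another WAT library came from mice on normal chow diet that received the vehicle (NCD-veh, called chow below), and its level is given first where levels are listed, before HFD-veh and then HFD-ncls. How many mice stand behind a library, and which fat depot was sequenced, is not given in the sources used here. With 1 library for each group the spread between animals is unknown, so every difference below describes these libraries, and no test was made.

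Ncls is a natural compound of Amaryllidaceae plants. WAT stores triglyceride in large adipocytes and also holds blood vessels, mesothelium, progenitor cells and immune cells. In obesity macrophages gather around dying adipocytes and take up their lipid, which is accompanied by genes such as Trem2 and Gpnmb. Adipocytes also carry a circadian clock. In it, Arntl and Clock drive the Per, Cry and Nr1d1 genes and the PAR-bZIP factors Dbp, Tef and Hlf, whose products in turn act back on the clock. In bulk tissue, fewer cells of a type and less RNA per cell cannot be told apart.

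Levels are given as FPKM (fragment counts scaled to transcript length and to library depth), and differences as log2 ratios of HFD-ncls to HFD-veh after 0.1 was added to each level. A gene was kept if it reached 1 FPKM in either HFD library, which gave 12152 genes. The HFD-ncls library held more RNA of liver genes than the other WAT libraries. Over 261 liver-enriched genes with a mean liver FPKM of at least 100, WAT held a median of 0.0227% of what liver held on chow, 0.109% with HFD-veh and 0.330% with HFD-ncls. Liver-enriched genes were therefore left out. These are genes whose liver libraries averaged at least 10 FPKM and stood at least 20 times above the median level across the 9 other libraries. Of the 264 genes left out, 256 met this definition and 8 had no liver value. Of the 264 genes, 83 were over 2-fold higher in HFD-ncls and 0 were over 2-fold lower. Their median log2 ratio was 0.32, against 0.04 in the 11888 genes that remained. A low gene that passed only through HFD-ncls had to be higher there, so part of the count of 83 may follow from the filter.

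The remaining WAT transcriptome was close between HFD-ncls and HFD-veh. Of the 11888 genes, 93.1% lay within 1.4-fold, and the 5th to 95th percentile of the log2 ratio ran from -0.28 to 0.51. A difference of over 2-fold was seen in 124 genes (1.04%), 98 of them higher (0.824%) and 26 lower (0.219%) in HFD-ncls. Most of these genes were weakly expressed. With an FPKM of at least 5 in either library, 8174 genes were left, of which 24 were over 2-fold higher and 7 over 2-fold lower. Of the 110 called genes with a known transcript length, 65 had at most about 100 fragments in the library with the higher level. In 17 called genes the level in 1 of the HFD libraries was under 0.1 FPKM. The 2-fold limit cut through a continuum, as the metalloproteinase gene Adam33 (log2 ratio 1.01) lay just inside it and the stress-induced mTORC1 inhibitor Ddit4 (0.99) just outside.

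**Figure D1:**
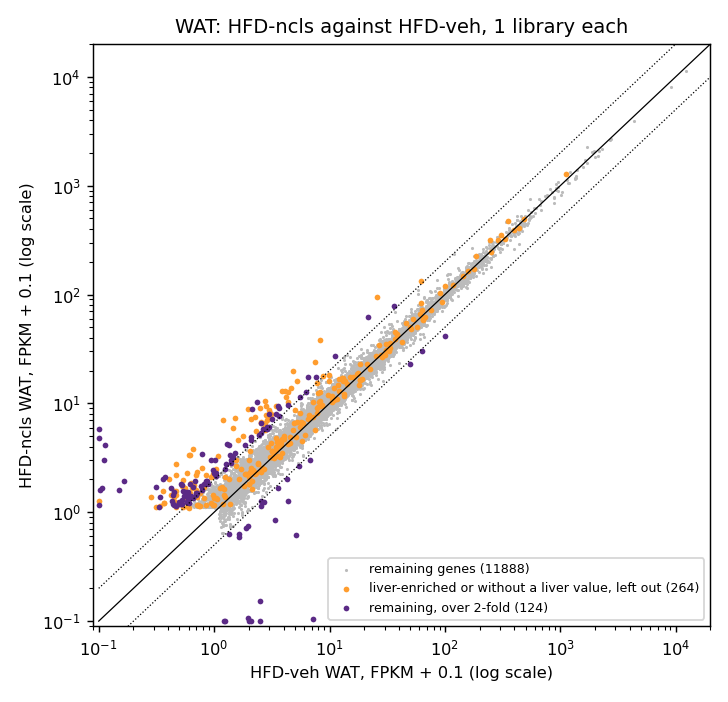
Level of each gene in HFD-veh WAT (x axis) and HFD-ncls WAT (y axis), as FPKM + 0.1 on log scales, for the 11888 genes that remained (grey), the 124 of them over 2-fold (purple) and the 264 genes left out (orange). The dotted lines mark 2-fold, and the orange points beyond them all lie above the diagonal.

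The adipocyte genes themselves differed little between HFD-ncls and HFD-veh WAT. All 19 adipocyte markers were measured, 14 lower and 5 higher in HFD-ncls, 0 of them over 2-fold, with a median log2 ratio of -0.09 and a range from -0.18 to 0.20. They also matched the label of the tissue. Fabp4, a fatty acid carrier, reached 12720 FPKM on chow, 12381 with HFD-veh and 11212 with HFD-ncls. The leptin gene Lep, whose level follows fat mass, was at 300 FPKM on chow, 1199 with HFD-veh and 1062 with HFD-ncls. Lep was therefore close in the HFD libraries and lower in the chow library. Adiponectin (Adipoq) was at 2849 FPKM on chow, 1692 with HFD-veh and 1600 with HFD-ncls. The adipogenic factor Pparg was at 129, 109 and 125 FPKM in the same order, and the secreted protease Cfd (adipsin) at 8163, 653 and 753 FPKM. Neither differed by as much as 1.4-fold between the HFD libraries.

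Lipid breakdown and oxidation genes lay slightly lower in WAT with ncls than with vehicle. Pnpla2, the lipase that takes the first fatty acid off triglyceride, was at 851 FPKM on chow, 678 with HFD-veh and 599 with HFD-ncls (log2 ratio -0.18). The 20 measured lipolysis and lipid droplet genes had a median of -0.12, the 24 beta-oxidation genes -0.12, with 20 of them lower, and the 65 respiratory chain genes -0.07, with 47 lower. None of these genes was over 2-fold apart. Adrb1, a receptor for noradrenaline that starts lipolysis, was at 2.14, 1.85 and 1.28 FPKM (-0.50). Adrb3, the main receptor of this kind in mouse adipocytes, was at 212, 67.0 and 70.4 FPKM (0.07). Adrb3 was therefore close in the HFD libraries and higher on chow.

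Fatty acid synthesis genes had a median log2 ratio of 0.00 over 17 measured members, with 3 genes standing above the rest. Pnpla3, a lipid droplet protein that follows feeding, was at 48.3 FPKM on chow, 58.4 with HFD-veh and 101 with HFD-ncls (log2 ratio 0.79). Mlxipl, which encodes the glucose-sensing factor ChREBP, was at 16.7, 16.4 and 24 FPKM (0.55), and Thrsp, a ChREBP target, had a log2 ratio of 0.33. The enzymes did not share this difference. Fasn, the fatty acid synthase, was at 453, 432 and 412 FPKM, and the desaturase Scd1 at 6275, 4356 and 3930 FPKM. Of the cholesterol genes, Insig1, which restrains sterol synthesis, was at 29.5, 105 and 152 FPKM (0.54).

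A set of metabolic genes was also assayed by PCR in the study. In the WAT libraries 14 of them passed the filter. Their log2 ratios ran from -0.18 for Pnpla2 to 0.26 for the hexokinase Hk2 and the muscle-type carnitine transferase Cpt1b. By PCR on groups of mice, the paper reported higher Pnpla2 (there called Atgl) in WAT with ncls. That is the opposite direction to these libraries. Citrate synthase (Cs) was at 138, 143 and 133 FPKM, and the uncoupling protein Ucp2 at 52.9, 115 and 132 FPKM. The other members, namely Scd1, Acsl1, Acadl, Fasn, Cox4i1, Pfkl, Tfam, Slc27a1 and Ppia, the reference gene of the PCR, lay between -0.15 and 0.24. Ucp1, which makes heat in brown and beige adipocytes, was low throughout, at 2.86, 2.38 and 3.92 FPKM (log2 ratio 0.70). Cox8b, another gene of brown fat, went the other way, at 26.1, 60.4 and 43.4 FPKM (-0.48). These genes therefore did not move together.

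**Figure D2:**
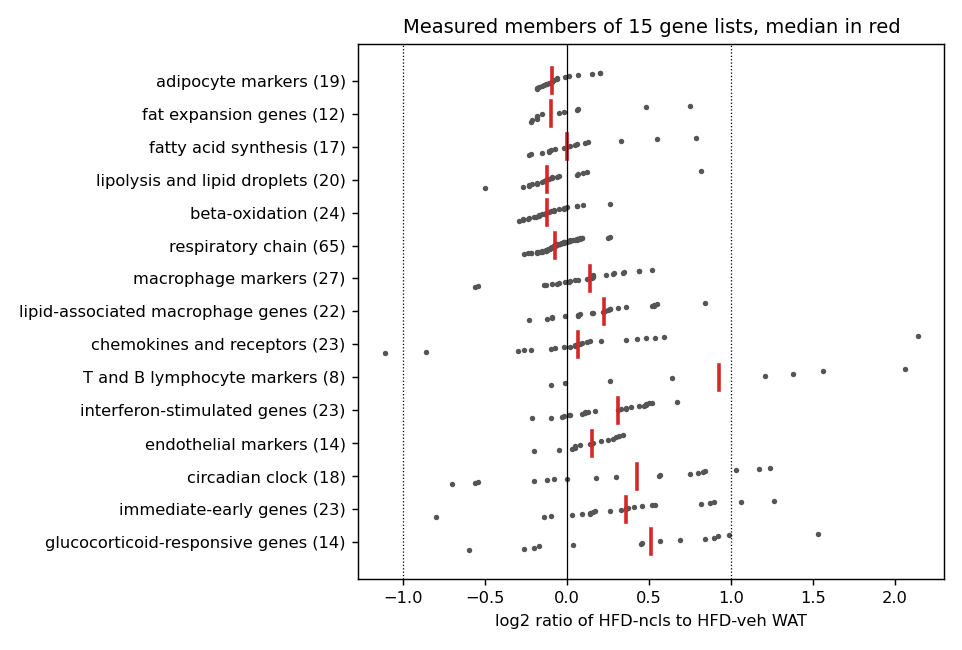
Log2 ratio of HFD-ncls to HFD-veh WAT (x axis) for each measured member (grey points, number in brackets) of 15 gene lists, with the median of each list in red. Adipocyte, lipolysis, beta-oxidation and respiratory chain medians lie between -0.12 and -0.07, while the clock and glucocorticoid medians lie at 0.43 and 0.51. Over all 19 clock members, whatever their level, the median is 0.30. The lymphocyte median of 0.92 covers only the 8 of 25 members that passed the filter, Cd79a and Cd3g through HFD-ncls alone, and over all 25 it is 0.64.

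Circadian clock genes differed in opposite directions between HFD-ncls and HFD-veh, with the Per genes higher and Nr1d1, Arntl and Clock lower. Of the 18 measured members, 11 were higher, which is near the share of 58.0% among all remaining genes. The median log2 ratio was 0.43, against 0.04 in all remaining genes. Over all 19 members, whatever their level, 11 were higher and 8 lower, with a median of 0.30. The 1 member that the filter left out was over 2-fold lower. Over 2-fold higher were 3 members, Per2 and Gm129 among them, against 0.824% of all genes. Per2, a repressor of Arntl and Clock (mm9 chr1:93312561-93355907, minus strand), was at 3.88 FPKM on chow, 3.09 with HFD-veh and 7.06 with HFD-ncls (log2 ratio 1.17). Gm129, now named Ciart and also a repressor of Arntl and Clock, was at 1.54, 0.681 and 1.5 FPKM (1.03), and passed the filter through HFD-ncls alone. HFD-ncls was the highest of the WAT libraries in Per2, and lay just below chow in Gm129.

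The other Per genes and the PAR-bZIP factors were higher by less than 2-fold. Per1 was at 15.2 FPKM on chow, 11.8 with HFD-veh and 21.1 with HFD-ncls, and Per3 at 9.83, 5.53 and 9.90. Dbp was at 45.7, 18.6 and 31.5 FPKM, and Tef at 35.2, 23 and 34.0. Nfil3, which competes with Dbp for its sites, was at 1.00, 3.33 and 5.87 FPKM. HFD-ncls therefore lay above HFD-veh in each of these genes. Lower in HFD-ncls were Nr1d1, which encodes the repressor REV-ERB alpha and was at 137, 65.7 and 40.3 FPKM (log2 ratio -0.70), Arntl at 2.54, 3.23 and 2.15 (-0.56), and Clock at 12.1, 16.1 and 11.1 (-0.54). Cry2 was the same in the HFD libraries, at 14.4 and 14.3 FPKM. The hour at which tissue was taken is not given in the sources used here.

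To show the promoters of clock genes that went up and down in HFD-ncls, and of a glucocorticoid-responsive gene, RefSeq windows on GRCm38.p6 from 250 bases before to 50 bases after an annotated start are printed 5′ to 3′ along the gene. They are Ciart on the minus strand of chr3:95882179-95882478, Per1 on the plus strand of chr11:69098699-69098998, Per3 on the minus strand of chr4:151044616-151044915, Arntl on the plus strand of chr7:113207261-113207560 and Sgk1 on the plus strand of chr10:21993640-21993939. Capitals mark the E-box CACGTG in Ciart and Per1, the D-box TTATGTAA in Per3, the core TAGGTCA of the element that ROR and REV-ERB receptors bind in Arntl, and the glucocorticoid response element in Sgk1, made of AGAACA and TGTTCT with 3 bases between them.
Ciart: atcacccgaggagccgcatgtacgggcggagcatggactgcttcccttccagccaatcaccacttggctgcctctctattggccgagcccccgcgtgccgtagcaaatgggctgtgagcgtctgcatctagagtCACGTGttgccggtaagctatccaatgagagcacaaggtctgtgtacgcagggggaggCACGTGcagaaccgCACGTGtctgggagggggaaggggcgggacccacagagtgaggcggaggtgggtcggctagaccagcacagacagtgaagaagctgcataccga
Per1: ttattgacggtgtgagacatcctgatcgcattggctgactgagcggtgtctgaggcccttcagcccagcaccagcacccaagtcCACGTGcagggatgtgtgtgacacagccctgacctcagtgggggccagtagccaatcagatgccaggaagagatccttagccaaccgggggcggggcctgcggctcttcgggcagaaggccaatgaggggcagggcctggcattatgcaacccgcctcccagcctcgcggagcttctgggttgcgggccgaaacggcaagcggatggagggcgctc
Per3: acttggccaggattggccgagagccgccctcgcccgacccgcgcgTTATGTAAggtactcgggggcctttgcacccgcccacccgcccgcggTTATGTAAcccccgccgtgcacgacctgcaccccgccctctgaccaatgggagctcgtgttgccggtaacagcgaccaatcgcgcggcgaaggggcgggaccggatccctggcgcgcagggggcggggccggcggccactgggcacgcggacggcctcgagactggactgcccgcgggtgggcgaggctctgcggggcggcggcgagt
Arntl: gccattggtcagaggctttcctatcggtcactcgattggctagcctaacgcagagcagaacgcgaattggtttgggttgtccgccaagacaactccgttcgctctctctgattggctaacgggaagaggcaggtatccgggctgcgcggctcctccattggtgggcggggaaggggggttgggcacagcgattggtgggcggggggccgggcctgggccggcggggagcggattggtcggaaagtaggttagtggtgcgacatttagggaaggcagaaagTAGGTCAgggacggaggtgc
Sgk1: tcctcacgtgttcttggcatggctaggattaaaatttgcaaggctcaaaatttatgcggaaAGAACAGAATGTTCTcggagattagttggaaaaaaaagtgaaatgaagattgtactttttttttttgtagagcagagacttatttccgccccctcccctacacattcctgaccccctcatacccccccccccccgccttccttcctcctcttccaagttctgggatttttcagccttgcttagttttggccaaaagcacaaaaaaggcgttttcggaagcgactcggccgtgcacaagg

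Each of the 4 motifs was searched on both strands in the windows of 27025 RefSeq genes. The E-box was found in 8.09% of all genes and in 5 of the 16 clock genes with a window (Per1, Cry1, Tef, Ciart and Bhlhe41). It was about as frequent in the glucocorticoid-responsive genes, in 4 of 13 (Fkbp5, Per1, Sgk1 and Dusp1), and the E-box of the printed Sgk1 window is left in lower case. Ciart held 3 of them, starting 116, 58 and 44 bases before its start. The D-box was found in 1.11% of all genes and in 1 clock gene, Per3, which held 2. The ROR element core was found in 2.97% of all genes and in 2 clock genes, Arntl and Nfil3, whose WAT levels differed in opposite directions. The 15-base glucocorticoid element was found in 3 genes of all (0.0111%), and Sgk1 was the only one among the 13 glucocorticoid-responsive genes with a window. In no printed window did a match of one motif overlap a match of another. A match describes these letters in the window and was not tied to any binding.

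In the other organs the clock genes differed in other ways between HFD-ncls and HFD-veh. Per2 had a log2 ratio of 0.10 in brown adipose tissue (BAT), 0.32 in liver and -0.03 in quadriceps muscle, compared with 1.17 in WAT. Arntl had a log2 ratio of -0.11 in BAT, 1.54 in liver and 0.17 in muscle, compared with -0.56 in WAT. Nr1d1 was lower in liver (-0.82) as in WAT (-0.70), but had a log2 ratio of 0.08 in BAT and in muscle. Gm129 was above 0 in all 4 organs, at 0.78 in BAT, 0.25 in liver and 0.37 in muscle. These differences between organs were not tested.

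**Figure D3:**
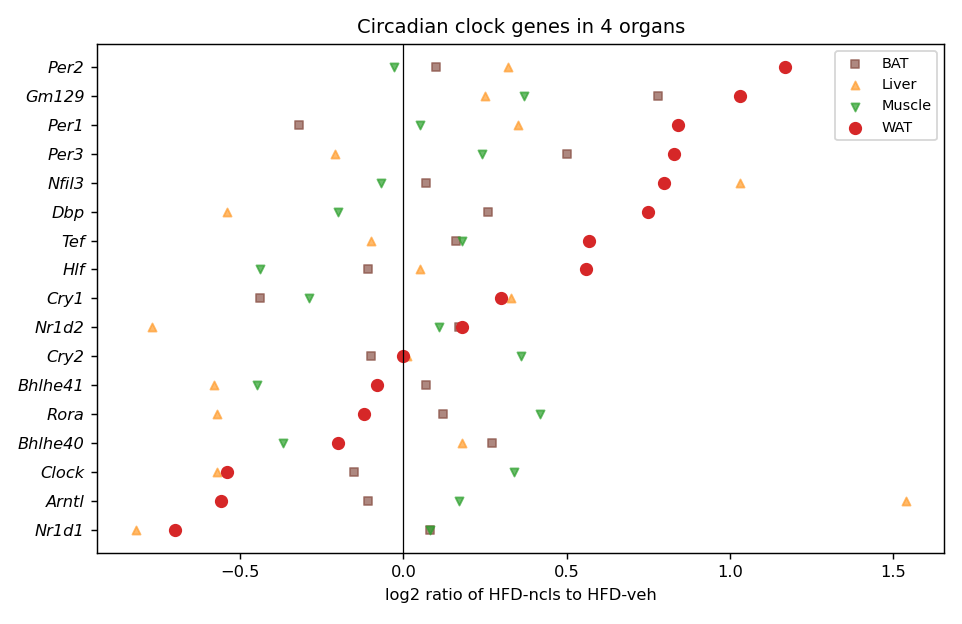
Log2 ratio of HFD-ncls to HFD-veh (x axis) for clock genes measured in WAT (y axis, ordered by WAT), with 1 symbol for each organ and 1 library for each group. In WAT the ratios shown run from -0.70 (Nr1d1) to 1.17 (Per2), and Per2 is further from 0 in WAT than in the other 3 organs.

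Genes that glucocorticoids induce were mostly higher in HFD-ncls WAT. Of 14 measured members 10 were higher, with a median log2 ratio of 0.51, where 58.0% of all genes were higher. Only 1 member was over 2-fold higher, against 0.824% of all genes. This was Hif3a, which passed the filter through HFD-ncls alone, at 0.815 FPKM on chow, 0.436 with HFD-veh and 1.45 with HFD-ncls. Tsc22d3, which encodes the anti-inflammatory protein GILZ, was at 45.1, 58.4 and 111 FPKM in the same order. Ddit4 was at 6.44, 14.0 and 28.0 FPKM. Both were near 2-fold higher in HFD-ncls. Sgk1, a kinase that controls sodium channels, was at 10.9, 18.3 and 27.2 FPKM, and Fkbp5, a chaperone of the glucocorticoid receptor, at 9.98, 16.3 and 22.4 FPKM. The transcription factor Zbtb16 was at 17.0, 9.94 and 16.1 FPKM. Not every member followed. Angptl4, an inhibitor of lipoprotein lipase, was at 194, 395 and 261 FPKM (log2 ratio -0.60), the metallothionein Mt2 at 161, 312 and 260 FPKM, and the pyruvate dehydrogenase kinase Pdk4 at 10.7, 19.1 and 17.0 FPKM. Rasd1, a Ras-related protein named for its induction by dexamethasone and not on the list, was over 2-fold lower, at 83.0, 63.4 and 30 FPKM (-1.08). In BAT and muscle Sgk1 went the other way, with log2 ratios of -1.04 and -1.10.

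Immediate-early genes, which respond within minutes to growth factors, stress or tissue handling, were also mostly higher. Of 23 measured members 20 were higher, with a median log2 ratio of 0.36, where 58.0% of all genes were higher. Over 2-fold higher were 2 members, against 0.824% of all genes. Ctgf, a matricellular protein (mm9 chr10:24315248-24318489, plus strand), was at 7.13 FPKM on chow, 11.1 with HFD-veh and 26.9 with HFD-ncls (1.26). The nuclear receptor Nr4a1 was at 3.76, 5.43 and 11.4 FPKM (1.06). In both, HFD-ncls was the highest library. Fos was at 7.23, 14.9 and 26.3 FPKM, and the phosphatase Dusp1 at 26.5, 36.8 and 69.0 FPKM. Egr3 was the lowest of the list, at 0.759, 1.64 and 0.898 FPKM (-0.80). Dusp1 also stands on the glucocorticoid list and Per1 on the clock list as well as on that list, so the lists are not independent. In BAT, Fos (-0.59), Dusp1 (-0.78) and Ctgf (-0.78) were lower in HFD-ncls.

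Among genes that reached 5 FPKM in either HFD library, the 15 that were most increased in HFD-ncls covered several functions. Cxcl13, a chemokine that attracts B cells (mm9 chr5:96385945-96390086, plus strand), was at 4.57 FPKM on chow, 2.26 with HFD-veh and 10.3 with HFD-ncls (log2 ratio 2.14). The gene 8430408G22Rik, now named Depp1 and known as a target of FoxO factors, was at 16.9, 21.4 and 61.7 FPKM (1.52). It was the most abundant of these genes. Ppp1r3c, which targets protein phosphatase to glycogen, was at 7.26, 6.40 and 17.3 FPKM (1.42). Prg4, the lubricant protein lubricin, was at 4.11, 3.50 and 9.31 FPKM (1.39), and the transcription factor Cebpd at 9.99, 7.54 and 17.3 FPKM (1.19). In all of these HFD-ncls was the highest of the WAT libraries. Casp9, an initiator of apoptosis, was at 6.65, 3.31 and 7.93 FPKM (1.24), and Rmnd1, needed for mitochondrial translation, at 3.89, 2.56 and 5.76 FPKM (1.14). Dmkn, a secreted epithelial protein, was at 11, 4.24 and 9.53 FPKM (1.15). In these genes HFD-veh was the lowest library. The remaining genes were Igj, Per2, Ctgf, Smtnl2, Vsig2, 2810008D09Rik and Pet117.

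**Figure D4:**
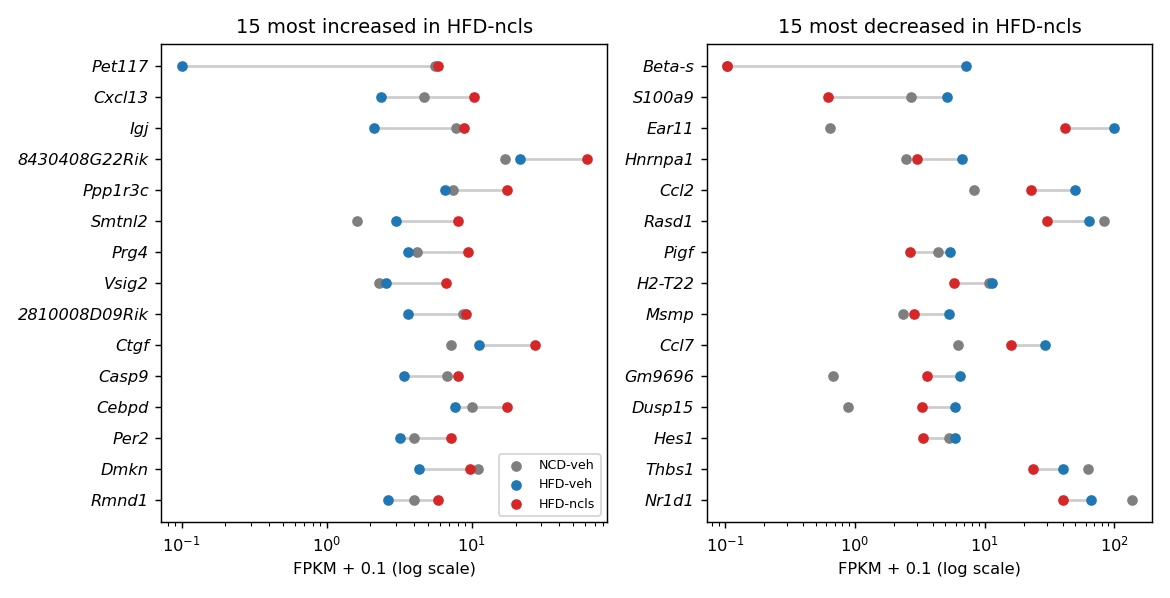
FPKM + 0.1 on a log scale (x axis) in the 3 WAT libraries for the 15 most increased (left) and 15 most decreased (right) genes that reached 5 FPKM in either HFD library. Cxcl13 runs from 2.26 FPKM in HFD-veh to 10.3 in HFD-ncls, and Ccl2 from 49.3 to 22.8, with the chow library at 8.22.

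Genes that were lower in HFD-ncls WAT included monocyte chemokines and some other myeloid genes, while further myeloid genes were higher. Ccl2, which draws monocytes into obese fat (mm9 chr11:81849073-81850955, plus strand), was at 8.22 FPKM on chow, 49.3 with HFD-veh and 22.8 with HFD-ncls (log2 ratio -1.11). Its neighbour in function Ccl7 was at 6.18, 28.9 and 15.9 FPKM (-0.86). HFD-ncls therefore lay between chow and HFD-veh for both chemokines. In BAT, Ccl2 went from 6.14 FPKM with HFD-veh to 1.4 with HFD-ncls (-2.06) and Ccl7 from 3.51 to 0.924 (-1.82). In muscle Ccl7 went from 1.29 to 0.120 FPKM (-2.67), while Ccl2 was under 1 FPKM in both libraries, at 0.756 and 0.296. In liver Ccl2 was at 0.271 and 0.195 FPKM, and Ccl7 at 0 and 0.131, too low to compare. Ear11, a ribonuclease of the eosinophil-associated family made by alternatively activated macrophages, was at 0.540, 100 and 41.4 FPKM in WAT (-1.28). Its reads may be shared with close copies of the family. The calcium-binding neutrophil protein S100a9 was at 2.62, 5.07 and 0.523 FPKM (-3.05), where HFD-ncls held at most about 3.36 fragments. Other myeloid genes were over 2-fold higher. Clec4d went from 1.99 FPKM with HFD-veh to 4.85 with HFD-ncls (1.24). The neutrophil protease gene Prtn3, which is not on the list of neutrophil and mast cell markers, had a log2 ratio of 1.14. It passed the filter through HFD-ncls alone. Mmp9, which is on that list, was lower, at -0.87, or -0.49 when 1 was added to each level. Of the 17 neutrophil and mast cell markers found in the data, whatever their level, 12 were higher and 5 lower. This count takes both cell types together. Of the other decreased genes, Thbs1, a matrix protein, was at 62.9, 40 and 23.5 FPKM (-0.76), and Hes1, a target of Notch, at 5.27, 5.81 and 3.25 FPKM (-0.82). Both lay under the chow level in HFD-ncls.

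The whole chemokine list did not follow Ccl2. Its 23 measured members had a median log2 ratio of 0.07, with 1 over 2-fold higher (Cxcl13) and 1 over 2-fold lower (Ccl2). Ccl5, which attracts T cells, was at 18.1, 7.71 and 11.6 FPKM, and the receptor Cxcr4 at 3.37, 6.29 and 9.22 FPKM, both higher in HFD-ncls.

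Macrophage genes were slightly higher in HFD-ncls. Of 27 macrophage markers 19 were higher, where 58.0% of all remaining genes were higher. Their median log2 ratio was 0.14, against 0.04 in all remaining genes, and 0 were over 2-fold apart. Emr1, which encodes the macrophage antigen F4/80, was at 14.0 FPKM on chow, 29.7 with HFD-veh and 30.9 with HFD-ncls, and the lysosomal protein Cd68 at 49.5, 198 and 222 FPKM. The lysozyme gene Lyz2 was at 489 FPKM on chow, 551 with HFD-veh and 747 with HFD-ncls. Mgl2, a lectin of alternatively activated macrophages, was lower, at 30.8, 53.0 and 35.8 FPKM (-0.56), as was Timd4, a receptor of resident macrophages, at 4.11, 1.33 and 0.879 FPKM (-0.54). The genes of lipid-laden macrophages had a median of 0.23, with 17 of 22 higher. Trem2, the lipid receptor of these cells, was at 4.26, 31.6 and 46.2 FPKM (0.55), and Gpnmb at 4.42, 106 and 153 FPKM (0.53). The elastase Mmp12 was at 3.71, 66.1 and 95.7 FPKM (0.53). HFD-ncls thus held the highest level of all 3 genes, and chow by far the lowest. In BAT these genes were scarce. There Trem2 went from 1.4 FPKM with HFD-veh to 0.413 with HFD-ncls (-1.55) and Gpnmb from 2.22 to 0.592 (-1.75), while Mmp12 was under 1 FPKM in both.

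Among lymphocyte genes, those of B cells were higher with ncls than with vehicle and close to chow, while those of T cells differed less. Of the 25 markers of T and B lymphocytes found in the data, 8 passed the filter, with a median log2 ratio of 0.92, and 4 were over 2-fold higher, against 0.824% of all genes. A low gene that passed only through HFD-ncls had to be higher there, so all 25 were also read. Over all 25, 20 were higher and 5 lower, with a median of 0.64, and the summed level was 38.9 FPKM on chow, 24.5 with HFD-veh and 41.4 with HFD-ncls. Separated by cell type after these values were seen, all 11 B cell genes were higher, with a median of 1.21 and sums of 20.4, 6.61 and 20.1 FPKM. Of the 14 T cell genes 9 were higher, where 58.0% of all remaining genes were higher. Their median was 0.17 and their sums were 18.6, 17.9 and 21.3 FPKM. Igj, the joining chain of secreted antibody (mm9 chr5:88949537-88956916, minus strand), was at 7.68, 2.02 and 8.71 FPKM (2.06). The B cell receptor chain Cd79a was at 3.82, 0.922 and 2.91 FPKM (1.56), and Cd79b at 4.05, 1.4 and 3.39 FPKM (1.21). In these 3 genes HFD-veh was the lowest library. Cd3g, of the T cell receptor complex, was the 1 T cell gene over 2-fold apart, at 2.14, 0.495 and 1.45 FPKM (1.38), and it passed the filter through HFD-ncls alone.

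**Figure D5:**
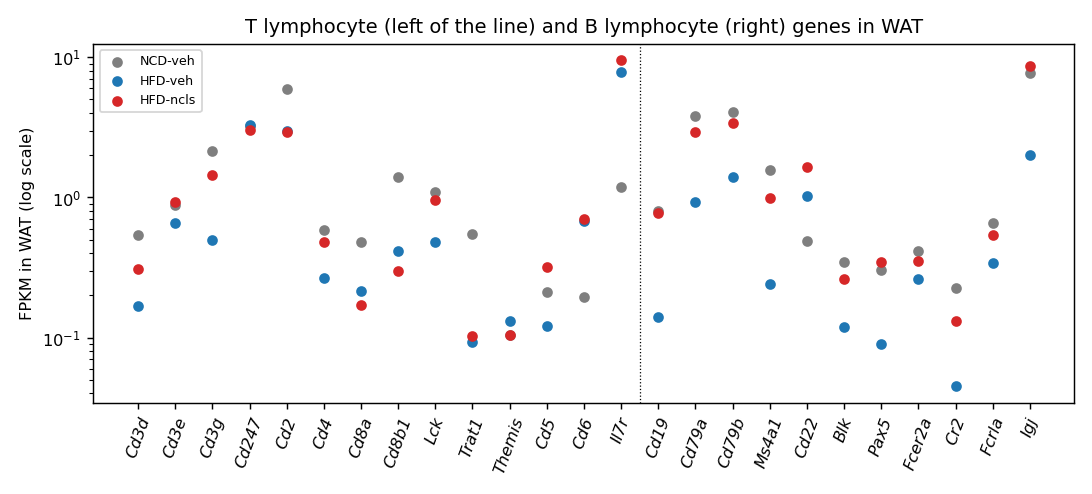
FPKM on a log scale (y axis) in the 3 WAT libraries for 14 T lymphocyte genes (left of the dotted line) and 11 B lymphocyte genes (right). HFD-ncls (red) lies above HFD-veh (blue) in all 11 B cell genes and in 9 of the 14 T cell genes.

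Interferon-stimulated, MHC class II, endothelial, mesothelial and matrix genes lay close to or slightly above the median of all genes. Of 23 interferon-stimulated genes 19 were higher, with a median of 0.31. The antiviral enzyme gene Oas2 was at 1.82 FPKM on chow, 2.38 with HFD-veh and 3.84 with HFD-ncls, and the regulator Irf7 at 8.49, 6.93 and 9.72 FPKM. MHC class II genes had a median of 0.16 (9 of 10 higher), endothelial genes 0.15, mesothelial genes 0.19 and collagen and matrix genes 0.05, with none of these over 2-fold. Wt1, a mesothelial transcription factor, was at 9.30, 2.98 and 5.09 FPKM. Cytosolic ribosomal protein genes had a median of 0.11, with 65 of 75 higher. Of the 24 epididymis, testis and seminal vesicle markers 0 passed the filter. In the HFD libraries they summed to 0.248 FPKM with vehicle and 0.113 with ncls, but in NCD-veh to 60.5 FPKM, where the seminal vesicle genes Svs5 and Svs4 stood at 31.1 and 20.5 FPKM. Pancreatic enzyme genes summed to 6.18, 31.2 and 24.8 FPKM in the 3 libraries. Of these the elastase gene Cela1 was at 5.58, 27.1 and 22.3 FPKM (-0.28). The part of neighbouring tissue in the levels given here was not tested.

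Lists on signalling, stress and growth were close between the HFD libraries, with 0 members over 2-fold apart in each. The 10 subunits and upstream kinases of AMPK, the energy sensor that switches on fatty acid oxidation, had a median log2 ratio of -0.05 and ran from -0.21 to 0.10. Its catalytic subunit Prkaa1 was at 21.3 FPKM on chow, 13.6 with HFD-veh and 13.7 with HFD-ncls. Insulin signalling and glucose uptake genes had a median of 0.12 over 20 members, 14 of them higher. Among the higher ones were Socs3, an inhibitor of cytokine and insulin signalling, at 4.01, 3.41 and 4.56 FPKM (0.41), and Pik3r1, the regulatory subunit of phosphoinositide 3-kinase, at 34.8, 23.5 and 29.3 FPKM (0.31). The insulin receptor substrate Irs2 was lower in HFD-ncls, at 16.2, 11.5 and 8.08 FPKM (-0.51), and so was Grb14, an inhibitor of the insulin receptor, at 20.3, 23.4 and 17.5 FPKM (-0.42). Medians were -0.06 for 16 heat shock genes, 0.06 for 22 genes of the unfolded protein and integrated stress responses, 0.02 for 13 NRF2 targets and 0.05 for 7 translation elongation factors. Breakdown of branched-chain amino acids, which is active in adipocytes, had a median of -0.09 with 14 of 18 genes lower, and cell proliferation genes had a median of 0.07. The proliferation marker Mki67 was at 1.73, 6.77 and 6.82 FPKM.

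Genes that accompany fat growth and triglyceride storage were likewise within 2-fold. The 12 fat expansion genes had a median of -0.10, and 8 of them were lower. Mest, a marker of adipocyte enlargement, was at 87.0 FPKM on chow, 526 with HFD-veh and 453 with HFD-ncls. Of the 4 higher members the largest log2 ratio was that of Sfrp1, a secreted inhibitor of Wnt signalling, at 4.77, 3.07 and 5.23 FPKM (0.75). Triglyceride assembly genes had a median of -0.05, and Dgat2, which makes triglyceride, was at 685, 1359 and 1179 FPKM. Fatty acid uptake genes had a median of 0.03 and adipokines -0.04, with the peptide hormone Apln at 3.72, 5.68 and 3.83 FPKM (-0.55). Both medians lay near 0 and changed sign under another treatment of the data.

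Mast cell genes and progenitor markers were a little higher in HFD-ncls. The mast cell proteases Mcpt4 and Cma1 were at 13, 4.78 and 7.68 FPKM and at 10.6, 4.34 and 5.96 FPKM. The progenitor marker Pi16 was at 47.7, 15.6 and 21.9 FPKM. In these 3 genes chow was the highest library and HFD-veh the lowest. The neutrophil and mast cell list as a whole had a median of 0.22 over 10 members, with S100a9 over 2-fold lower, and the progenitor list a median of 0.12 over 12.

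Further genes over 2-fold apart were singled out after their values were seen. Except for Wee1 and Sik1 they passed the filter through HFD-ncls alone, so that they had to be higher there. Il6, an inflammatory cytokine, was at 0 FPKM on chow, 0.0510 with HFD-veh and 1.51 with HFD-ncls, where it rested on at most about 27.1 fragments. Has1, which makes hyaluronan, was at 0.116, 0.262 and 1.91 FPKM, and Ptgs2, the inducible cyclooxygenase, at 0.500, 0.411 and 1.08 FPKM. Chi3l1, a chitinase-like protein, was at 0.737, 0.273 and 2.0 FPKM. These levels are low in every WAT library. The B cell factor Pou2af1 was at 0.927, 0.343 and 1.09 FPKM and Mzb1, a protein of antibody-secreting cells, at 0.811, 0.0642 and 1.83 FPKM. The cell cycle kinase Wee1, a clock output gene, was at 1.92, 2.34 and 5.05 FPKM, and the salt-inducible kinase Sik1 at 4.22, 6.13 and 12.5 FPKM.

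The largest ratios came from genes listed close to 0 in 1 library, and these are uncertain. Pet117, a mitochondrial assembly factor, was at 5.44 FPKM on chow, 7.85e-05 with HFD-veh and 5.70 with HFD-ncls, and was under 0.1 FPKM in 8 of the 9 libraries of other organs. The ribosomal protein gene Rpl26 was at 2.11, 3.07e-04 and 4.66 FPKM, and under 0.1 FPKM in 6 of those 9. A ribosomal protein gene is used by every cell, so a listing near 0 may be a failed estimate. On the other side the haemoglobin gene Beta-s, which has near-identical copies, was at 0.00436, 7.11 and 0.00450 FPKM. The other 14 such genes were Rad51d, Dag1, Atp6v0c-ps2, Fancl, Mzb1, Defb25 and Il6, higher in HFD-ncls, and Ghrl, Rmrp, Zbtb24, Tmsb15l, Retnlg, Hist1h4m and Tubgcp4, lower.

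Some of the 124 genes also crossed 2-fold in another organ. In BAT, where 1.92% of 10211 genes were over 2-fold apart, 50 of the 124 were measured, and 2 went over 2-fold the same way (Ccl2 and Rpl26) and 5 the opposite way. In liver, where 2.31% were over 2-fold apart, 6 of 43 went the same way, Ctgf among them, and 6 the opposite way. In muscle, where 1.87% were over 2-fold apart, 7 of 45 went the same way, among them Ctgf, Prg4 and Angptl7, and 4 the opposite way. Ctgf was thus over 2-fold higher in WAT, liver (1.31) and muscle (1.18), and lower in BAT (-0.78). Many of the shared genes were listed under 0.1 FPKM in a library compared, where a ratio is uncertain. Going the same way, these were Rpl26 in BAT, Beta-s and Crlf3 in liver, and Fancl, Atp6v0c-ps2 and Hist1h4m in muscle. Going the opposite way, these were Beta-s and Zbtb24 in BAT, Fancl, Rad51d and Rpl26 in liver, and Dag1, Vps13d and Zbtb24 in muscle.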

How the data were processed

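RNA of snap-frozen organs was sequenced by the authors in 12 libraries, and the WAT libraries are used here. Per the labels and the methods of the study, reads were aligned with TopHat to mm9 and FPKM per RefSeq gene were computed with Cufflinks. The deposited FPKM values are already normalized for transcript length and depth, and 0 further columns were found. Low FPKM fell on whole fragments in 58.2% to 62.7% of cases, which placed the depth of the WAT libraries at about 20200000 to 22800000 fragments. With 1 library for each group no test was made. Genes with FPKM of at least 1 in either library were compared as log2 of (FPKM + 0.1), without liver-enriched genes, and called over 2-fold. Named genes are the 15 most increased and 15 most decreased with FPKM of at least 5, up to 4 members of each of 40 lists, the metabolic PCR genes of the study, and genes that show a level. The gene members and lists were chosen with earlier results of these data known. Of 836 list symbols 12 were not matched. The comparison was checked on simulated data. Python 3.11.15, numpy 2.4.6 and pandas 2.3.3 were used. Positions are from GENCODE on mm9 and promoters from RefSeq on GRCm38.p6. Some genes of the lists are counted but not reported by name here.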

Additional observations from a re-analysis of the deposited data

Results flagged for a closer look

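Liver-enriched genes, which the comparison leaves out, were often higher in WAT with ncls than with vehicle. Of the 256 that passed the filter 78 were over 2-fold higher, against 0.824% of the remaining genes. A liver gene that passed only through HFD-ncls had to be higher there, so part of this count may follow from the filter. In 6 genes that were over 2-fold higher in HFD-ncls WAT, another organ went over 2-fold the other way, counting genes that reached 1 FPKM in either HFD library of that organ and were at or above 0.1 FPKM in each library compared. Under 1 FPKM in the other organ the same held for further genes, such as Cd3g (-1.04) and Cd79b (-1.09) in liver and Actg2 in BAT (-1.45) and liver (-1.17). These differences between organs were not tested. In BAT the log2 ratio was -1.09 for Casp9, -1.53 for Shisa4 and -2.63 for Tpm2. In liver it was -1.20 for Adck1, -1.04 for Rmnd1 and -2.06 for Tpm2. In muscle it was -1.68 for Ppp1r3c. Tpm2 and Shisa4 were far more abundant in muscle, at 1264 and 104 FPKM with HFD-veh, and passed the WAT filter through HFD-ncls alone. The 7 skeletal muscle markers measured in WAT had a median log2 ratio of -1.50 in BAT and -2.78 in liver. The part of muscle RNA in these organs was not tested.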

How the results depend on the processing

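The count of genes over 2-fold followed the treatment of weakly expressed genes. From 124 genes (98 higher, 26 lower), it went to 31 (24 and 7) with FPKM of at least 5, to 44 (30 and 14) with a pseudocount of 1, to 508 (380 and 128) with no filter on FPKM, and to 207 (181 higher) with liver-enriched genes kept. Under rescaling by the median ratio, a log2 shift of 0.04, 117 of the 124 genes stayed over 2-fold, and all 124 after subtraction of liver RNA. No gene over 2-fold turned its direction. The medians of NRF2 targets, adipokines, blood markers and fatty acid uptake genes, all close to 0, changed sign under at least 1 alternative. Of 168 named genes, 3 moved by over 1.5-fold with a pseudocount of 0.01 and 7 with a pseudocount of 1, Hif3a (log2 ratio 0.77) and Cd3g (0.71) among them. Leaving out genes under 0.1 FPKM in 1 library was added after seeing the data. No paired analysis was possible because the labels carry no replicate numbers and each group holds 1 library, for which reason no replicate could be left out either.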
